A study of Mus musculus with 8 samples.

Results

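The genes of fatty acid uptake, binding and activation were followed in tendon stem cells (TSCs), the tendon-resident cells that give rise to tenocytes, after 4 days in low glucose (LG) medium or in high fat, high glucose (HFHG) medium. The symbols looked up in the expression table were Cd36, Slc27a1, Slc27a3, Slc27a4, Acsl1, Acsl3, Acsl4, Acsl5, Fabp3 and Fabp5, a list given by name, and all 10 were found among its 19301 genes. The cells were primary TSCs from the patellar tendon of C57BL/6J mice, released with type I collagenase and grown as a whole, with no sorting step described. The LG medium held 5.5 mM glucose and the vehicle DMSO. The HFHG medium held more glucose and 300 µM palmitic acid, a saturated long-chain fatty acid, so the effects of the sugar and of the fatty acid cannot be told apart. Each group had 4 libraries of mRNA, which the study calls biological replicates. The labels do not say whether they came from separate mice, and p-values measure only the spread between these libraries.

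Long-chain fatty acids reach a cell as free acids or after lipases release them from lipoproteins. CD36 is a scavenger receptor that gathers them at the plasma membrane, and the SLC27 (FATP) proteins promote their entry and can themselves join them to coenzyme A. Inside the cell, FABP proteins carry the insoluble acids through the cytosol, and ACSL enzymes make the acyl-CoA that every later step uses, whether oxidation, storage or membrane synthesis.

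Expression was given as FPKM, the fragments of a gene scaled by gene length and by library size, so that levels can be compared between genes. Differences are log2 fold changes of HFHG minus LG, on log2(FPKM + 0.1), from limma with Benjamini-Hochberg adjustment over the 11710 genes with at least 0.5 FPKM in at least 4 of the 8 libraries. All 10 genes passed this minimum. Of the 10, 3 rose in HFHG (Cd36, Acsl1 and Acsl3), 5 fell (Slc27a1, Acsl4, Acsl5, Fabp3 and Fabp5) and 2 did not pass the test (Slc27a3 and Slc27a4) at an adjusted p-value below 0.05. Across all genes tested, 64.8% passed, 34.0% upward and 30.8% downward, so 8 of 10 is not far from the background. The median log2 fold change of the 10 genes was -0.14, against 0.017 for all genes tested, and the median size of the change was 0.31 against 0.25. Beyond the study's threshold, a log2 fold change over 1 in size with an unadjusted p-value below 0.05, there was 1 gene upward, Cd36, where 3.68% of all genes passed, and 0 genes downward, where 1.65% passed. In fits by limma under 19 other settings the call of Cd36, Slc27a1, Acsl4, Acsl5, Fabp3 and Fabp5 held in each.

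**Figure D1:**
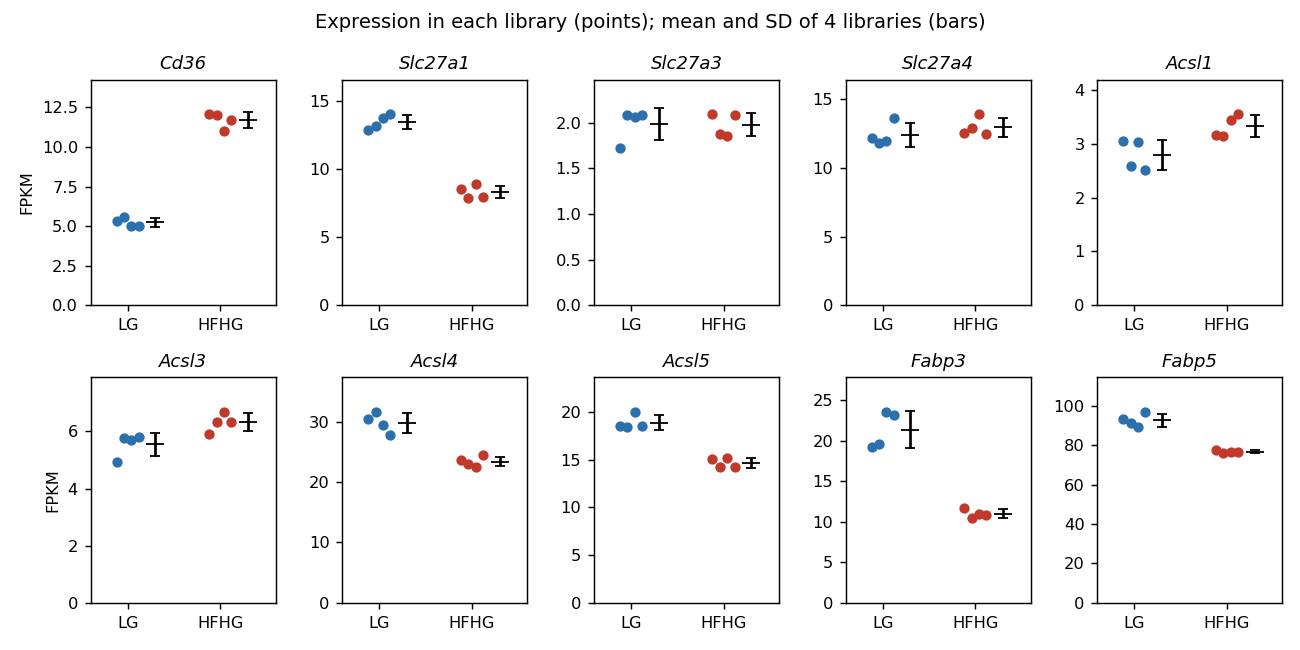
FPKM (y axis, from 0) of the 10 genes in each LG library (blue points) and each HFHG library (red points), with bars for the mean and SD of 4 libraries. Cd36 lay at 11.0 to 12.1 FPKM in HFHG and 5.02 to 5.60 in LG, Fabp3 at 10.5 to 11.8 and 19.2 to 23.6, and only Slc27a3 and Slc27a4 had values that overlapped between the groups.

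The libraries held 34308108 to 37362725 reads, and the component with the most variance in a principal component analysis (81.0%) separated HFHG from LG. Of the 9 tendon markers, 8 were higher in HFHG by limma, where 34.0% of all genes tested rose. The log2 fold change was 1.36 for Col1a1, while Mkx was lower (-0.35). The matrix genes among them were plentiful, but the lineage genes Scx (0.983 to 2.88 FPKM) and Tnmd (0.220 to 1.19 FPKM, 10 reads in LG replicate 1) were scarce. Scx values overlapped between the media (1.53 to 2.88 FPKM in HFHG, 0.983 to 1.76 FPKM in LG). By qPCR, at a culture time it does not give, the study reports the opposite for these lineage genes, lower Scx and Tnmd in HFHG medium. The study found no significant change of Mkx by qPCR. It also reports the change in protein, with TNMD among the proteins measured. The defining adipocyte genes Adipoq, Plin1, Cidec, Lep and Retn lay between 0 and 0.228 FPKM in each library. The other adipocyte marker in the table, Fabp4, was at 66.3 to 72.8 FPKM in HFHG and 23.3 to 29.3 FPKM in LG. Macrophage markers were not scarce: 8 of the 9 listed had at least 1 FPKM in each of the 8 libraries, with Cd163 at 0.012 to 0.044 FPKM. Their summed level was 1722 to 1771 FPKM in HFHG and 1889 to 1970 FPKM in LG, most of it Lyz2. By limma, 7 of the 8 macrophage markers tested were lower in HFHG, where 30.8% of all genes tested fell. The log2 fold changes were -0.97 for C1qa, -0.86 for Mrc1, -0.69 for Itgam and -0.52 for Adgre1. They were smaller for Cd68 (-0.31), Csf1r (-0.13) and Lyz2 (-0.11), and Ptprc (-0.19) did not pass. Csf1r values overlapped between the media (7.59 to 8.41 FPKM in HFHG, 8.29 to 9.03 FPKM in LG). The number of macrophage markers that fell was 6 with libraries rescaled to the same sum and 8 with median-ratio scaling. CD36, several FABPs and several ACSLs are also made by macrophages, and in bulk RNA fewer cells of a type and less RNA per cell cannot be told apart. The part of these cells in the results was not tested.

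The sequence around RefSeq transcript starts of the genes was read (GRCm38.p6), in windows of 250 bases before to 50 bases after each start. Of the 10 genes, 9 matched, with 12 windows in all. The 250 bases before the start are printed below for the 3 genes with the largest log2 fold changes, so that the letters searched can be seen. Capitals mark a match, and a sequence without capitals held none. For Slc27a1, which has 3 windows, the window with a match is shown.
Cd36, chr5:17835897-17836146, minus strand: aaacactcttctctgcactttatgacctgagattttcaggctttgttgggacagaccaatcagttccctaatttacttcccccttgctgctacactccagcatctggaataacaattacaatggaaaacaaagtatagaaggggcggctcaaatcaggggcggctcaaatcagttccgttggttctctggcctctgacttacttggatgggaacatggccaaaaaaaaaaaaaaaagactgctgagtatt
Fabp3, chr4:130308488-130308737, plus strand: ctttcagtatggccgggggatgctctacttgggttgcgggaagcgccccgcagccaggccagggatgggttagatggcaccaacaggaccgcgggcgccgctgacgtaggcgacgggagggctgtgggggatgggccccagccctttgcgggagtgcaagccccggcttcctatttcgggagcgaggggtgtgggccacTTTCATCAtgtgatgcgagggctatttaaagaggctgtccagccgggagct
Slc27a1, chr8:71570344-71570593, plus strand: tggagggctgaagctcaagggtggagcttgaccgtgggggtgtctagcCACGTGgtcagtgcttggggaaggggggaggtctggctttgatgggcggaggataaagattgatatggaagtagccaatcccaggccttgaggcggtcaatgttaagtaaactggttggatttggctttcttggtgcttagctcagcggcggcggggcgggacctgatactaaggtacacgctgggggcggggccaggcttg
The printed Cd36 and Slc27a1 stretches lie wholly inside the spans that GENCODE gives these genes, and the Fabp3 stretch lies partly inside, its match included, so none of the 3 is wholly upstream of its gene. The Cd36 window was poor in G and C (43.0% of its 300 bases, with 3 CpG), whereas the Fabp3 window had 65.0% and 22 CpG. All 32851 windows had a median of 52.7% and 7 CpG.

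Short motifs were searched on both strands. The direct repeat DR1, to which PPAR with RXR binds (AGGTCA, any 1 base, AGGTCA), was in 0.0396% of all windows. A relaxed form that includes it, with AGGNCA in both places, was in 0.381%. Neither was in a window of the 9 genes. The element TGATGNAA, bound by ATF4 with a C/EBP partner, was in 3.97% of all windows and was found once, on the minus strand of Fabp3 (TTTCATCA as read on the printed strand, first base at -51 from the start). The E-box CACGTG was in 7.15% of all windows and was found once, in Slc27a1 at -202. Each match is a run of letters and not a shown binding site. In the annotation of the deposited table, 9 of the 10 genes carried the KEGG pathway PPAR signaling, all but Slc27a3, as did 0.982% of the 4991 tested genes with any pathway. The 10 genes were chosen by name as fatty acid genes, so this share follows from the choice and not from the expression values.

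At the plasma membrane, Cd36 was the gene of the 10 with the largest change. It lies on the minus strand of chromosome 5 of GRCm38, from 17781690 to 17888801. Its level was 12.1, 12.0, 11.0 and 11.7 FPKM in HFHG replicates 1 to 4, and 5.31, 5.60, 5.02 and 5.03 FPKM in LG replicates 1 to 4. The lowest HFHG library was thus far above the highest LG library, and the spread within a group was small beside the gap. The means were 11.7 ± 0.487 and 5.24 ± 0.276 FPKM (SD, n = 4 each), a rise of 123%. The log2 fold change was 1.14 (standard error 0.0528, 95% interval 1.03 to 1.26, adjusted p = 1.24e-09 by limma), and 3.78% of all genes tested changed more in size. With 649 to 1647 reads in a library, counting error was at most 3.93% of a value. In LG cells Cd36 was as scarce as Acsl3, with overlapping values, and in HFHG cells it lay beside Fabp3, again with overlapping values.

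Slc27a1, which encodes the fatty acid transporter FATP1 known from muscle and fat, went the other way. The gene is on chromosome 8 from 71568882 to 71587302. Its level was 8.51, 7.88, 8.86 and 7.95 FPKM in HFHG and 12.9, 13.2, 13.8 and 14.0 FPKM in LG, replicates 1 to 4 in order. No HFHG library came near the LG range. Its expression fell by 38.3% from 13.5 ± 0.522 to 8.30 ± 0.468 FPKM (SD, n = 4 each), for a log2 difference of -0.69 (standard error 0.0501, adjusted p = 9.01e-08 by limma).

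Slc27a4 (FATP4, the main SLC27 transporter of the gut lining and skin) did not pass the test. This gene, on chromosome 2 from 29802634 to 29817522, had 12.5, 12.9, 13.9 and 12.4 FPKM in HFHG and 12.2, 11.8, 11.9 and 13.6 FPKM in LG, so the ranges overlapped across most of their width. The log2 fold change was 0.065, with a 95% interval of -0.05 to 0.18 (adjusted p = 0.312 by limma). With each library rescaled to the same FPKM sum it was 0.12 and passed at an adjusted p of 0.0469 by limma. Slc27a3, a little-studied FATP with acyl-CoA synthetase activity (chromosome 3 from 90385239 to 90389938, minus strand), was the scarcest of the 10 at 1.98 ± 0.127 FPKM in HFHG and 1.99 ± 0.178 FPKM in LG (SD, n = 4 each). Its 95% interval ran from -0.20 to 0.19 (adjusted p = 0.965 by limma), and only 136 to 180 reads per library stood behind it, which gives a counting error of up to 8.57%.

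The shares of Slc27a1 and Slc27a4 in the SLC27 group did not overlap between the media. Summed over the 3 genes, expression was 22.5 to 24.6 FPKM in HFHG and 26.8 to 29.7 FPKM in LG. Slc27a1 made up 47.1% to 49.6% of this sum in LG and 34.7% to 36.8% in HFHG, while Slc27a4 made up 43.0% to 45.8% in LG and 54.1% to 57.0% in HFHG. In LG the 2 genes had overlapping levels, and in HFHG each library had more Slc27a4 than Slc27a1. The ratio of Cd36 to Slc27a1, per length, was 0.36 to 0.43 in LG and 1.24 to 1.52 in HFHG.

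Fabp3 encodes the heart-type fatty acid binding protein, which is abundant in heart and skeletal muscle. It lies on chromosome 4 from 130308595 to 130315463. HFHG libraries 1 to 4 had 11.8, 10.5, 10.9 and 10.8 FPKM, and LG libraries 1 to 4 had 19.2, 19.6, 23.6 and 23.2 FPKM. The HFHG values were tight, whereas the LG libraries formed a lower pair (1 and 2) and a higher pair (3 and 4), all above HFHG. Expression fell by 48.6% from 21.4 ± 2.30 to 11.0 ± 0.553 FPKM (SD, n = 4 each). The log2 fold change was -0.95 (standard error 0.0680, 95% interval -1.10 to -0.80, adjusted p = 8.06e-08 by limma), and 5.99% of genes changed more in size. Fabp3 had 252 to 568 reads per library, with a counting error of up to 6.30%. Of its 823 annotated exon bases, 81 are shared with Zcchc17 on the other strand, which had up to 14.5 FPKM, and whether the counting used strand is not given in the sources used here.

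Skeletal muscle genes were measured beside Fabp3, at a much lower level. Acta1 (skeletal actin) was 0.904 ± 0.252 FPKM in HFHG and 3.38 ± 0.378 FPKM in LG, and Mb (myoglobin) was 0.976 ± 0.878 and 2.09 ± 0.401 FPKM (SD, n = 4 each). By limma their log2 fold changes were -1.82 and -1.55 (adjusted p = 5.23e-07 and 0.0303), while the muscle gene Actn3 had 1.41 in the other direction. The call of Mb was lost in 8 of 19 other settings, at adjusted p-values of 0.0569 to 0.0815 by limma without HFHG replicate 3 or 4 or LG replicate 2, 3 or 4. The other losses were without a filter on low values (0.0822), with a robust eBayes (0.0835) and with eBayes without trend (0.0771). The summed level of the muscle list was 2.32 to 5.07 FPKM in HFHG and 6.01 to 6.86 FPKM in LG, below that of Fabp3 alone. Myod1 was at or near 0 in all 8 libraries, at no more than 4 reads. Tnnt3, below the minimum for testing, was at 0.285 to 0.846 FPKM in HFHG and 0.047 to 0.224 FPKM in LG. The part of muscle cells in the Fabp3 result was not tested.

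Fabp5, the epidermal-type binding protein found in skin, fat and macrophages, was the most abundant of the 10, above 92.8% of tested genes in HFHG and 93.9% in LG. It is on chromosome 3 from 10012548 to 10016607. Its level was 77.7, 76.0, 76.6 and 76.4 FPKM in HFHG and 93.4, 91.2, 89.0 and 96.9 FPKM in LG. The HFHG libraries were nearly alike and all lay under the lowest LG library. Expression fell by 17.2%, from 92.6 ± 3.36 to 76.7 ± 0.757 FPKM (SD, n = 4 each), which is -0.27 on the log2 scale (standard error 0.0287, adjusted p = 3.19e-06 by limma). This change was of ordinary size here, since 46.3% of genes tested changed more.

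The levels of both binding proteins, Fabp3 and Fabp5, can be set side by side. Their summed level was 86.4 to 89.5 FPKM in HFHG and 111 to 120 FPKM in LG. The share of Fabp3 in it was 12.1% to 13.1% in HFHG and 17.1% to 20.9% in LG. Fabp5 exceeded Fabp3 by a factor of 3.77 to 4.85 in LG and of 6.61 to 7.25 in HFHG.

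Among the acyl-CoA synthetases, Acsl4 and Acsl5 were the more abundant genes and both fell. Acsl4, which prefers arachidonic and other polyunsaturated acids, is on the X chromosome from 142317993 to 142390535 (minus strand). It had 23.7, 22.9, 22.5 and 24.4 FPKM in HFHG and 30.3, 31.6, 29.4 and 27.7 FPKM in LG. The groups did not overlap, and LG replicate 4 was the nearest to HFHG. Expression fell by 21.4%, a log2 fold change of -0.35 (standard error 0.0429, adjusted p = 1.43e-05 by limma). With 4289 to 6065 reads per library it was the most deeply covered of the 10.

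Acsl5, an isoform of mitochondria and endoplasmic reticulum best known from intestine, is on chromosome 19 from 55251938 to 55297720. Its level was 15.1, 14.2, 15.2 and 14.2 FPKM in HFHG and 18.6, 18.4, 20.0 and 18.5 FPKM in LG. Each LG library was above each HFHG library. Expression fell by 22.3%, a log2 fold change of -0.36 (standard error 0.0416, adjusted p = 7.04e-06 by limma), close to that of Acsl4. The ratio of Acsl4 to Acsl5 was 1.48 to 1.72 in HFHG and 1.47 to 1.72 in LG, with ranges that overlapped almost completely. Acsl5 shares 404 of its 4864 annotated exon bases with Zdhhc6 on the other strand, which reached 18.5 FPKM.

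Acsl1 and Acsl3 were less abundant and rose slightly. Acsl1, the leading isoform of liver, heart and fat, lies on chromosome 8 from 46471037 to 46536051. It had 3.16, 3.16, 3.45 and 3.56 FPKM in HFHG and 3.05, 2.60, 3.04 and 2.53 FPKM in LG. The groups did not overlap, but the gap between them was narrow, with LG replicates 1 and 3 just under HFHG replicates 1 and 2. The mean was 18.8% higher in HFHG, a log2 fold change of 0.24 (standard error 0.0824, 95% interval 0.07 to 0.42, adjusted p = 0.0200 by limma). The call was lost with quantile normalization (0.14, adjusted p = 0.135 by limma). It was also lost without HFHG replicate 3 or 4, at adjusted p-values of 0.0518 and 0.0590 by limma, and without LG replicate 2 or 4, at 0.0560 and 0.0527.

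Acsl3, an isoform of endoplasmic reticulum and lipid droplets, lies on chromosome 1 from 78657825 to 78707743. It had 5.91, 6.32, 6.68 and 6.32 FPKM in HFHG and 4.94, 5.76, 5.69 and 5.80 FPKM in LG. LG replicate 1 was well below the other LG libraries, which came close to HFHG replicate 1. The mean was 13.7% higher in HFHG, with a log2 fold change of 0.18 (standard error 0.0641, 95% interval 0.04 to 0.32, adjusted p = 0.0235 by limma). The call was lost without LG replicate 1 (0.13, adjusted p = 0.0734 by limma) and without HFHG replicate 3 (0.16, adjusted p = 0.0720). It was also lost with median-ratio scaling (adjusted p = 0.0623 by limma) and with quantile normalization (0.123). Acsl3 shares 244 of its 4357 annotated exon bases with Utp14b on the same strand, which had up to 0.502 FPKM. Sizes as large as those of Acsl1 and Acsl3 were common, since 50.4% and 60.5% of genes tested changed more.

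**Figure D2:**
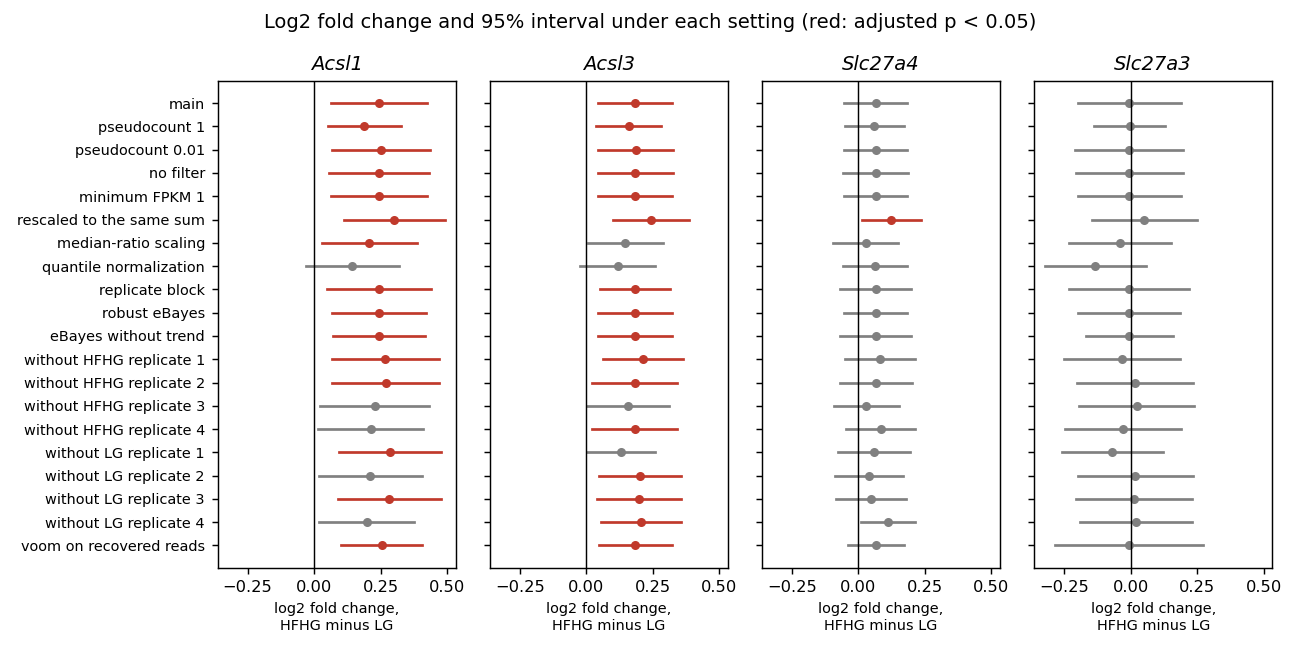
Log2 fold change (x axis, HFHG minus LG) with its 95% interval for the 4 genes whose call or sign depended on the setting, under the fit described in the text (main) and the 19 other settings listed on the y axis (red, adjusted p below 0.05; grey, not). Acsl1 and Acsl3 stayed above 0 in each setting but lost the call in 5 and 4 of them, Slc27a4 gained it in 1, and Slc27a3 stayed near 0.

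The ACSL sum, over 4 genes, was 46.6 to 48.5 FPKM in HFHG and 54.6 to 58.4 FPKM in LG. The share of Acsl1 was 6.62% to 7.34% in HFHG against 4.45% to 5.36% in LG, and that of Acsl3 was 12.4% to 14.0% against 8.69% to 10.6%. Acsl4 took 47.1% to 50.3% in HFHG and 50.6% to 54.1% in LG. The Acsl5 shares overlapped between the media, at 29.3% to 31.7% and 31.5% to 34.4%. The ratio of Acsl4 to Acsl1 was 6.54 to 7.48 in HFHG and 9.68 to 12.2 in LG.

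**Figure D3:**
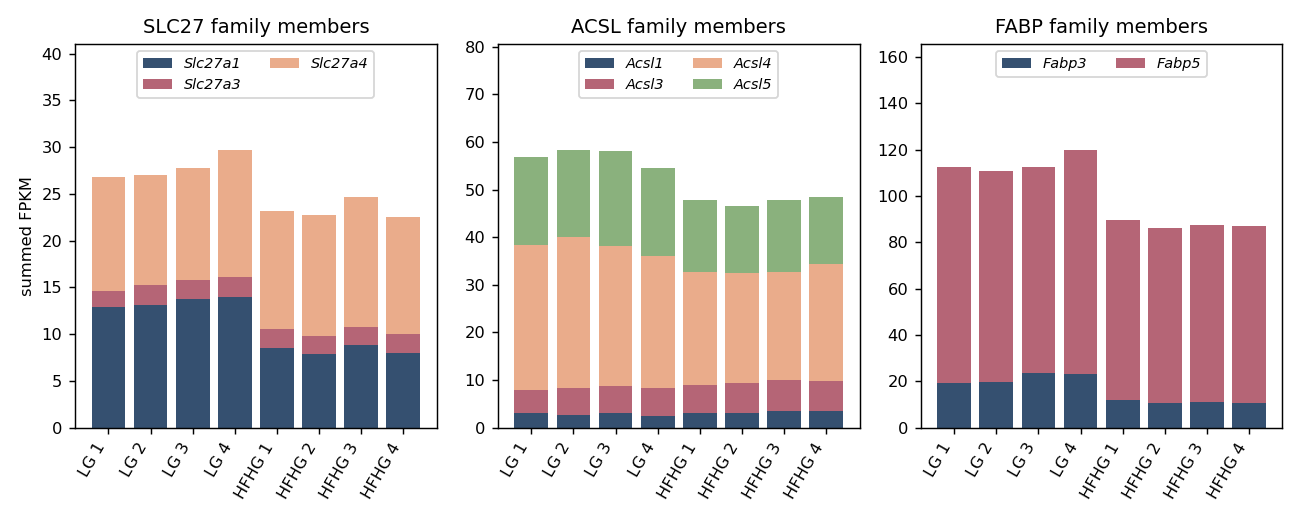
Summed FPKM (y axis, from 0) of the 3 SLC27, 4 ACSL and 2 FABP genes in each library, with a coloured segment per gene. The sums of these genes were lower in the 4 HFHG libraries in each family (SLC27 22.5 to 24.6 against 26.8 to 29.7, ACSL 46.6 to 48.5 against 54.6 to 58.4, FABP 86.4 to 89.5 against 111 to 120). The FABP sum leaves out Fabp4, which was higher in HFHG.

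From LG to HFHG, the mean of these sums changed by -16.5% for SLC27, -16.3% for ACSL and -23.1% for FABP, values for which no test was run. The FABP sum covers Fabp3 and Fabp5 only and leaves out Fabp4, whose mean rose from 26.6 to 68.4 FPKM. That rise was larger than the fall of the FABP sum, so the direction for FABP depends on the genes summed. For 8 of the 10 genes the FPKM of the HFHG and LG libraries did not overlap, where this held for 59.2% of all genes tested. When the libraries were permuted over all 70 arrangements (exact test, two-sided), each of these 8 genes had p = 0.0286, the smallest value that 4 against 4 libraries allow. Groups without overlap always give this p-value, so it adds nothing to the count of such genes. Slc27a4 had p = 0.343 and Slc27a3 p = 0.943 in the same exact test. The number of genes without overlap was 7 with median-ratio scaling, without Acsl3, and 6 with quantile normalization, without Acsl1 and Acsl3.

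**Figure D4:**
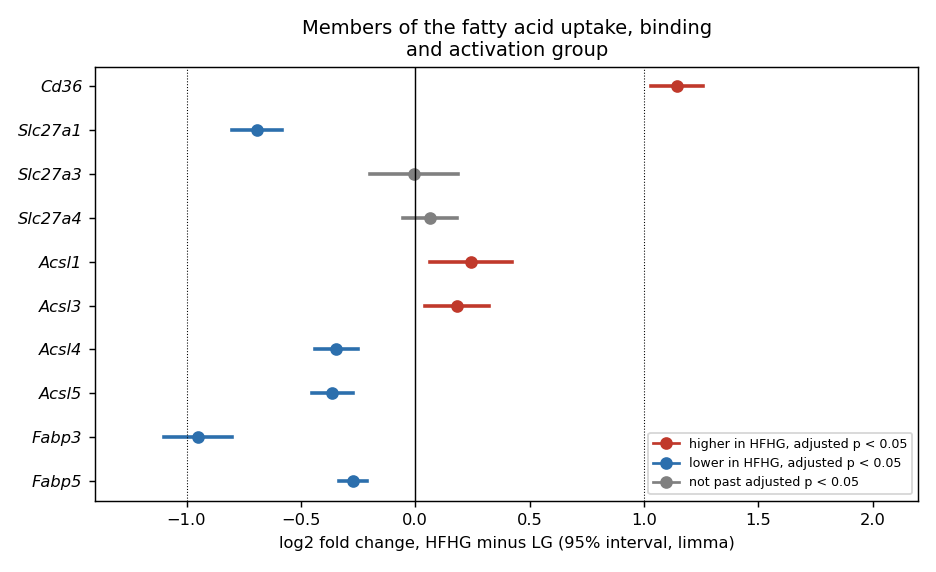
Log2 fold change (x axis, HFHG minus LG) of the 10 genes with 95% intervals from limma (red, higher in HFHG; blue, lower; grey, adjusted p not below 0.05); dotted lines mark -1 and 1. Cd36 (1.14) lay beyond 1 and Fabp3 (-0.95) just inside -1, with Acsl1 (0.24) and Acsl3 (0.18) close to 0.

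Other genes of the pathway were taken from lists. Of 14 paralogs of the 10 genes, 12 were in the table and 5 passed the low-value minimum. Fabp4, the adipocyte-type binding protein that macrophages also make, rose from 26.6 ± 2.61 to 68.4 ± 3.03 FPKM (SD over 4 libraries in each medium; 1.36 on the log2 scale, limma adjusted p = 8.26e-10), while Fabp3 and Fabp5 fell. In LG it was near Fabp3 in level, and in HFHG it was close to Fabp5. Slc27a6, the heart-type FATP, fell from 0.932 ± 0.383 to 0.465 ± 0.102 FPKM (SD, n = 4 each; log2 difference -0.82, limma adjusted p = 0.00833). Acsbg1, Acsl6 and Fabp7 did not pass (adjusted p = 0.0553, 0.0807 and 0.176 by limma). With libraries rescaled to the same sum, Acsbg1 and Acsl6 passed upward (adjusted p = 0.0190 and 0.0497 by limma), as they did with voom on the recovered reads (0.0306 and 0.0339), and Fabp7 did not. The remaining paralogs in the table, among them Slc27a2, Slc27a5, Fabp1 and Fabp2, had at most 0.241 FPKM in any library.

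Genes that supply fatty acids at the surface were 16, of which 13 were tested, 6 rose, 3 fell and 4 did not pass. Of all genes tested, 34.0% rose and 30.8% fell. The number that fell was 5 with median-ratio scaling, and 2 with libraries rescaled to the same sum or with quantile normalization. Angptl4, a secreted inhibitor of lipoprotein lipase, rose from 90.1 ± 3.74 to 264 ± 2.03 FPKM (SD, n = 4 each; log2 fold change 1.55, adjusted p = 3.39e-13 by limma). Lipg, the endothelial lipase, had a log2 fold change of 1.17 from under 1 FPKM in LG. Of the caveolar coat genes, Cav1 rose from 65.5 ± 1.57 to 112 ± 1.69 FPKM and Cavin1 from 66.6 ± 1.11 to 104 ± 1.47 FPKM (SD, n = 4 each), with log2 fold changes of 0.77 and 0.65 (adjusted p = 5.93e-11 and 1.63e-10 by limma). Lpl, lipoprotein lipase itself, was already abundant at 148 ± 2.74 FPKM in LG and rose to 179 ± 2.91 FPKM in HFHG (log2 fold change 0.28). Vldlr, the very low density lipoprotein receptor, fell from 13.7 ± 0.308 to 9.60 ± 0.205 FPKM (SD, n = 4 each; log2 fold change -0.51, adjusted p = 1.55e-07 by limma).

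Of 15 acyl-CoA binding proteins and thioesterases, 13 were tested, and 4 rose, 5 fell and 4 did not pass, where 34.0% of all genes rose and 30.8% fell. With quantile normalization 5 of them rose and 6 fell. The binding proteins Acbd5, a peroxisomal membrane protein, and Dbi, the small cytosolic carrier of acyl-CoA, rose with log2 fold changes of 0.58 and 0.33 by limma, and Acbd6 fell with -0.35. The thioesterases Acot2 (mitochondrial) and Acot13, which cut acyl-CoA back to free acid, fell with -0.82 and -0.51. Acot2 was 14.1 ± 0.393 FPKM in HFHG and 25.1 ± 1.75 FPKM in LG (SD, n = 4 each). Of 7 genes that activate short and medium chains, 3 were tested. Acss2, which makes acetyl-CoA from acetate in the cytosol, rose from 3.14 ± 0.407 to 6.43 ± 0.115 FPKM (SD, n = 4 each; log2 fold change 1.02, adjusted p = 3.22e-07 by limma), Acsf2 rose with 0.71, and Acsf3 did not pass.

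All 13 genes that take up acyl-CoA in the next steps were tested, and 6 rose, 4 fell and 3 did not pass. Among all genes tested, 34.0% rose and 30.8% fell. With libraries rescaled to the same sum, 3 of the 13 fell. Entry into mitochondria runs over CPT1, a carrier and CPT2. Cpt1a, the rate-limiting enzyme of that entry, rose from 20.2 ± 0.142 to 57.2 ± 1.57 FPKM (SD, n = 4 each; log2 fold change 1.49, adjusted p = 5.34e-13 by limma), and Cpt2 rose from 10.2 ± 0.676 to 21.5 ± 0.711 FPKM (1.07, adjusted p = 1.14e-09). Cpt1b and Cpt1c rose with 1.28 and 0.55, the former from under 0.5 FPKM. Dgat2, the last enzyme of triglyceride synthesis, rose from 9.27 ± 0.451 to 19.7 ± 0.786 FPKM (SD, n = 4 each; 1.08, adjusted p = 5.86e-10 by limma). The other listed genes of that synthesis did not rise: Agpat2 (-0.18) and Gpat4 (-0.12) fell, and Dgat1, Gpam and Gpat3 did not pass. Gpat4 passed narrowly (adjusted p = 0.0238 by limma), with overlapping values (16.1 to 17.3 FPKM in HFHG, 17.1 to 18.9 FPKM in LG). Sptlc1 and Sptlc2, the subunits that join palmitoyl-CoA to serine for ceramides, fell with -0.35 and -0.28. Among receptors that fatty acids bind, Rxra rose from 20.5 ± 0.883 to 24.6 ± 1.16 FPKM (SD, n = 4 each; log2 fold change 0.26, adjusted p = 1.95e-04 by limma), and Ppara and Pparg lay below the minimum, at 0.081 to 0.403 FPKM in each library. Ppard had 0.10 (adjusted p = 0.0251 by limma), a call lost with median-ratio scaling (0.123) and without HFHG replicate 2 (0.0795) or LG replicate 1 (0.0521), 3 (0.0621) or 4 (0.0555).

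**Figure D5:**
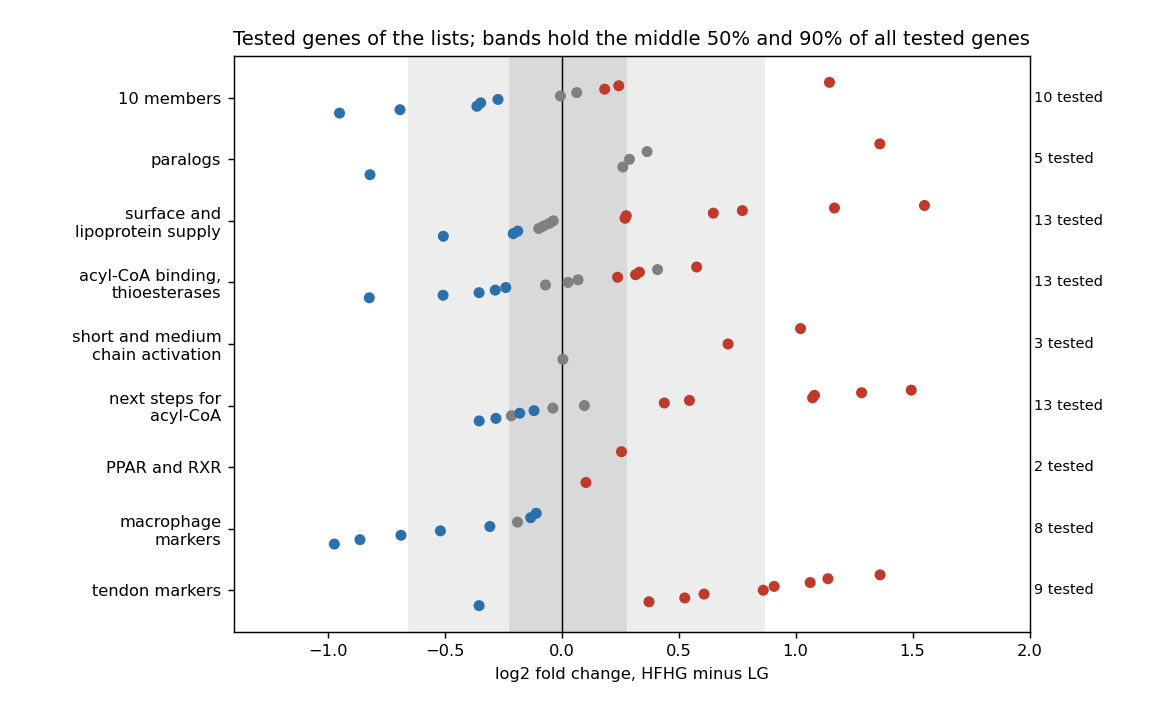
Log2 fold change (x axis, HFHG minus LG) of each tested gene in the lists named on the y axis (red, higher in HFHG at an adjusted p below 0.05; blue, lower; grey, not past), with grey bands for the middle 50% and 90% of all genes tested. Cd36 (1.14) lay beyond the 90% band on the right and Fabp3 (-0.95) and Slc27a1 (-0.69) beyond it on the left, and the other 7 of the 10 genes lay inside it.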

How the data were processed

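The 8 libraries were assigned to HFHG (25.5 mM glucose, 300 µM palmitic acid) and LG by their labels, with doses from the study's methods. The mRNA kit was stranded. Unpooled FPKM values of 19301 genes were deposited by the authors. HISAT2 2.1.0 and mm10 are named in the submitters' processing notes, and the counting program, annotation and filters are not given in the sources used here. Read numbers recovered from the FPKM were whole (within 0.001 of a read) for 100% of genes and served to describe depth. limma 3.58.1 in R 4.3.3 (lmFit, eBayes with trend) was run on log2(FPKM + 0.1) for 11710 genes with at least 0.5 FPKM in at least 4 libraries, without covariates. Positions came from GENCODE M21 (GRCm38), promoters from RefSeq. All 10 members were named, with at most 5 called genes of each list by largest log2 fold change plus those a sentence needed. Lpl, Sptlc1, Sptlc2, Agpat2, Gpat4, Dgat1, Gpam, Gpat3, Lyz2, Csf1r, Ptprc, Cd163, Mkx, Scx, Tnnt3 and Myod1 were added after their values were seen. Members, lists and motifs were chosen with earlier results of these data known. Alternatives were other pseudocounts, filters, scalings and variance priors, a replicate block, each library left out, and, added after seeing the data, voom on the recovered reads. The fit and the read recovery were tested on simulated data.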

Additional observations from a re-analysis of the deposited data

Results flagged for a closer look

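In each group of 4 libraries, a library was singled out where its gap to the nearest other library took up nearly all of the group's range (Dixon's test). This was looked for in 90 groups, both media of 45 named genes, and marked 10 of them, where chance alone marks about 1 in 20. Of the fatty acid genes, LG replicate 1 had 1.73 FPKM of Slc27a3 against 2.06 to 2.09 FPKM in the other LG libraries, and 4.94 FPKM of Acsl3 against 5.69 to 5.80. LG replicate 3 had 20.0 FPKM of Acsl5 against 18.4 to 18.6. Among the other genes, Angptl4 was 266.9 FPKM in HFHG replicate 1 (others 263) and 95.6 FPKM in LG replicate 4 (others 87.7 to 88.7). Cav1 was 109 FPKM in HFHG replicate 2 (others 113), and Dbi was 89.3 FPKM in LG replicate 1 (others 80.9 to 82.0). LG replicate 3 had 20.5 FPKM of Cpt1a (others 20.2) and 21.9 FPKM of Rxra (others 20.0 to 20.3), and HFHG replicate 4 had 224 FPKM of Col3a1 (others 230 to 231).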

How the results depend on the processing

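Over the 19 other settings, 174 of the values of the 10 genes kept their direction and their side of the threshold, 9 lost the call (5 of Acsl1, 4 of Acsl3), 1 gained it (Slc27a4) and 6 changed sign, all of Slc27a3. The log2 fold change of Slc27a3 was 0.052 with libraries rescaled to the same sum and ran from -0.069 to 0.023 with 1 library left out. It was 0.018 without HFHG replicate 2, 0.023 without HFHG replicate 3, 0.018 without LG replicate 2, 0.013 without LG replicate 3 and 0.019 without LG replicate 4. The number of genes that rose (3) was 4 with libraries rescaled to the same sum, 2 with median-ratio scaling, 1 with quantile normalization, 1 at the study's threshold and 1 to 3 with 1 library left out (1 without HFHG replicate 3). The number that fell (5) was 0 at the study's threshold and 5 with any 1 library left out. Cd36 had log2 fold changes of 1.03 to 1.20 over all settings and Fabp3 of -0.997 to -0.890. Rescaling to the same sum moved the median of all genes to 0.07 and median-ratio scaling to -0.02. Same-numbered libraries did not deviate together (correlations of -0.07 to -0.0056, and 0 of 4 HFHG libraries correlated best with their own number). A shared mouse or culture with a small effect could be missed this way, so the origin of the libraries stays unknown. With a replicate block 3 genes rose and 5 fell as before, and 7342 of all genes passed in place of 7592. FPKM is relative to the library, whose FPKM sums were lower in HFHG, and 136 reads in the shallowest value of Slc27a3 limit what could be seen for it.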
